A study of Mus musculus with 10 samples.

Results

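The genes described here are 41 genes of the extracellular matrix and of fibrosis, followed in mouse liver RNA from 10 libraries. They were chosen by name, as the structural collagens, laminins, glycoproteins, proteoglycans, matrix proteases, crosslinking enzymes, contractile genes and the ligand Tgfb1 that liver fibrosis work commonly measures, and all 41 were found among the 55401 genes of the table. Livers labelled NIKflox (n = 5) were compared with livers labelled NIKhKO (n = 5). All 10 mice had been fed the Lieber-DeCarli liquid diet with 5% ethanol over 4 weeks, so the comparison is between genotypes on ethanol, and no group on a control diet is used here. NIK is the NF-kB inducing kinase, encoded by Map3k14, and the study title speaks of hepatic NIK. The labels do not spell out hKO. The sources used here give neither the Cre driver nor the part of the gene that the allele removes, nor the age of the mice. Whether libraries of a group share a litter or a cage is not stated either, and a p-value therefore reflects only how far these particular libraries vary.

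The extracellular matrix of the liver is a thin meshwork of collagens, laminins, fibronectin and proteoglycans in the space between hepatocytes and sinusoids, with denser collagen around portal tracts and vessels. In chronic injury, including that by alcohol, hepatic stellate cells and portal fibroblasts can become myofibroblasts, which express alpha smooth muscle actin (Acta2) and secrete fibrillar collagen, and transforming growth factor beta is a main signal for this change. Tissue inhibitors of metalloproteinases slow matrix breakdown, while lysyl oxidases crosslink collagen and elastin. Vessel walls and the liver capsule hold the same kinds of matrix cells in the absence of injury.

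Positions are given in GRCm38. Total estimated counts ran from 47161869 to 65052525 per library, and the hepatocyte markers of the tissue check summed to between 37796 and 52729 FPKM (a level of sequenced fragments corrected for transcript length and library depth) in every library. Map3k14 read 0.606 ± 0.168 FPKM in NIKflox against 0.383 ± 0.0372 FPKM in NIKhKO (SD, n = 5 each). The two-sided edgeR quasi-likelihood test with Benjamini-Hochberg adjustment over all genes gave it a log2 fold change of −0.58 (SE 0.20, adjusted p = 0.47), in a fit without the filter on low levels. Small and ribosomal RNA made up 0.668 ± 0.326% of the NIKflox counts against 1.38 ± 0.860% of the NIKhKO counts (SD, n = 5 each). A pair of NIKflox libraries stood apart in muscle markers. NIKflox 2 had the highest summed markers of smooth muscle, portal fibroblasts and skeletal muscle. NIKflox 4 had 34.9 FPKM of summed heart muscle markers against 7.62 in NIKflox 2 and at most 1.49 elsewhere. NIKflox 2 also had the highest sums for several cell types of the liver itself. These were stellate cells (156 FPKM), sinusoidal (92.8) and vascular endothelial cells (19.0), cholangiocytes (53.9) and monocyte-derived macrophages (52.2). Hepatocyte markers were highest in NIKflox 1 and Kupffer cell markers in NIKflox 4. Log2 fold changes and counts of matrix genes are therefore given with all 10 libraries and without NIKflox 2.

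No matrix gene passed the test between genotypes. Of the 41 genes, 36 passed the filter (a mean of at least 0.5 FPKM over the 10 libraries), and 0 of these had an adjusted p below 0.05, the threshold for a call, in edgeR's quasi-likelihood test. The same test called 3 of 12730 genes (0.0236%), and DESeq2 and limma also called 0 of the 36. At an unadjusted p below 0.05, 7 of the 36 matrix genes (19.4%) were lower in NIKhKO and 0 higher, against 5.14% and 4.85% of all tested genes in those directions. The 7 were Acta2, Tagln, Dpt, Lum, Fbln2, Lamb1 and Eln, of which Fbln2 and Eln averaged under 0.5 FPKM in NIKhKO and passed the filter through NIKflox. Log2 fold changes (NIKhKO minus NIKflox) were below 0 for 33 of 36, with a median of −0.33, beside 51.8% of all tested genes and a median of −0.01. Since a gene high in 1 library can pass the filter through that library alone, the fit was also made without a filter. There 38 of 41 were below 0 (51.8% of all genes in that fit), the median was −0.32, and 9 of 41 were lower at an unadjusted p below 0.05 (5.09% of all genes), with Fbln1 and Mmp2 beside the 7.

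Those counts rested largely on NIKflox 2. Without that library 34 matrix genes were tested, 0 were called (0% of 12683 genes), and 1, Tagln, had an unadjusted p below 0.05, being lower in NIKhKO, against 5.23% of all tested genes lower and 4.68% higher. Log2 fold changes were then below 0 for 25 of 34 (51.2% of all tested genes), with a median of −0.09. With no filter and without NIKflox 2 the count below 0 was 28 of 41 (50.2% of all genes in that fit), the median −0.08, and 1 of 41, Tagln, was lower at an unadjusted p below 0.05 (4.45%). Leaving out NIKflox 4 as well gave 23 of 33 below 0 (49.4% of all tested genes), a median of −0.07, 0 called (0.00789% of all tested genes) and 0 lower at an unadjusted p below 0.05 (4.16%). The count of 7 also moved to 4 of 35 without NIKhKO 1 (4.59% of all tested genes) and to 3 of 36 without NIKhKO 2 (4.19%).

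**Figure D1:**
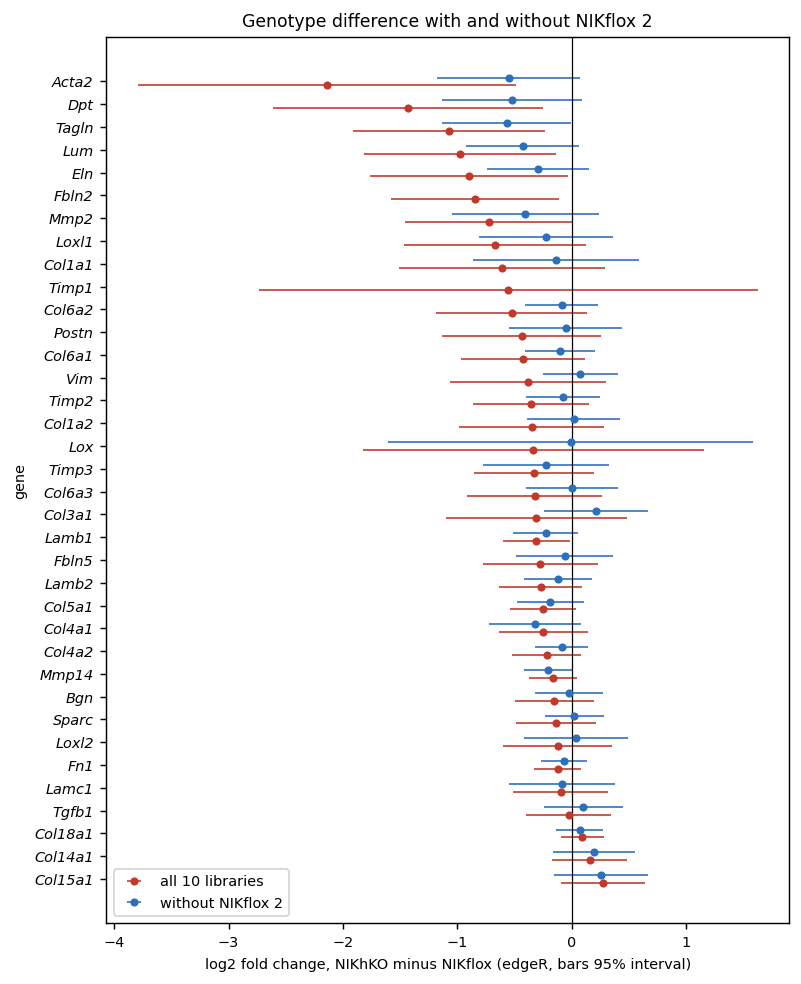
Log2 fold change (NIKhKO minus NIKflox) of the 36 tested matrix genes from edgeR, as points with 95% intervals, for all 10 libraries and for the 9 without NIKflox 2. Of the points for all 10 libraries 33 lie below 0, and the largest, Acta2, moves from −2.14 to −0.55 without NIKflox 2.

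Most matrix transcripts had their highest level in 1 library. NIKflox 2 was the highest of the 10 libraries for 34 of the 41 genes, and for 29 of the 36 tested (13.5% of all tested genes were highest there). It was at least 2-fold above the median of the other 9 libraries for 21 of 41, and for 18 of the 36 tested, against 3.89% of all tested genes. NIKflox 4 passed that mark for 3 genes, Fbln1, Acta2 and Tagln, and each other library for 0. The 7 genes that were highest elsewhere were Col4a1, Col15a1, Col18a1, Lamc1, Col14a1, Timp3 and Mmp14, of which the first 4 encode basement membrane components. By role, the median ratio of NIKflox 2 to the level over all 10 libraries was 3.99 for the contractile genes, 2.64 for fibrillar collagens, 2.51 for proteoglycans and matricellular genes, and 1.01 for basement membrane genes, beside 1.004 for all tested genes. The basement membrane genes were split, as Lamb1, Lamb2 and Col4a2 were highest in NIKflox 2 and the other 4 were not. In bulk tissue a different number of cells of a type and a different amount of RNA per cell cannot be told apart.

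**Figure D2:**
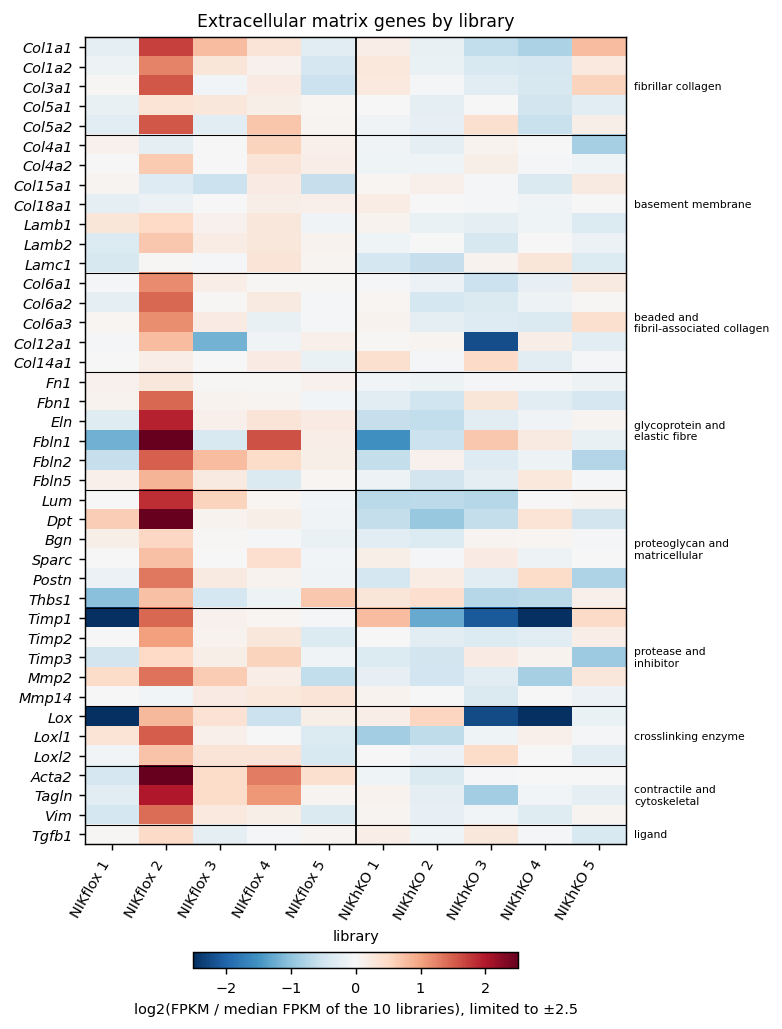
Colour shows log2 of each matrix gene's FPKM over its median in the 10 libraries, limited to 2.5 either way, with libraries in columns and the 41 genes in rows by role. The NIKflox 2 column is red for most genes outside the basement membrane block. Within that block its median ratio is 1.01, though Lamb1, Lamb2 and Col4a2 are highest in it.

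The contractile genes, which mark smooth muscle and activated stellate cells, included the largest fold change of the 36, that of Acta2. Acta2 (ENSMUSG00000035783, chromosome 19, 34241090 to 34255590, minus strand), the alpha smooth muscle actin, read 0.699, 14.6, 1.29, 2.25 and 1.23 FPKM in NIKflox 1 to 5 and 0.861, 0.731, 0.911, 0.942 and 0.924 FPKM in NIKhKO 1 to 5. NIKflox 2 stood 15.8-fold above the median of the other 9 libraries, while NIKflox 1 was the lowest of all 10, so the groups overlapped. Acta2 had a log2 fold change of −2.14 (SE 0.75, edgeR adjusted p = 0.37), and −0.55 (SE 0.28, adjusted p = 0.56) without NIKflox 2. Leaving out NIKflox 4 as well gave −0.24. The 5 NIKhKO libraries lay close together, at 0.874 ± 0.0857 FPKM (SD, n = 5), against 1.37 ± 0.648 FPKM (SD, n = 4) in NIKflox without NIKflox 2.

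Tagln (ENSMUSG00000032085, chromosome 9, 45929619 to 45936058, minus strand), which encodes the actin-binding protein transgelin or SM22, read 2.16, 10.4, 3.57, 5.52 and 2.74 FPKM in NIKflox 1 to 5 and 2.79, 2.22, 1.43, 2.48 and 2.19 FPKM in NIKhKO 1 to 5. NIKflox 2 and NIKflox 4 were the highest, and the groups overlapped. In edgeR the log2 fold change was −1.07 (SE 0.38, adjusted p = 0.37), and −0.57 (SE 0.25, adjusted p = 0.50) without NIKflox 2, and −0.29 with NIKflox 4 left out as well. Tagln overlaps Pcsk7 on the opposite strand, and the sources used here do not state whether counting used strand. Acta2 was 1.41 times Tagln in FPKM in NIKflox 2 and 0.309 to 0.638 times in the other 9 libraries. Vim, the intermediate filament of mesenchymal cells, read 3.40, 12.2, 5.46, 5.10 and 3.61 FPKM across NIKflox and 4.86, 4.00, 4.44, 3.76 and 4.83 FPKM across NIKhKO. It was highest in NIKflox 2, and its log2 fold change of −0.38 (SE 0.31) became 0.08 (SE 0.15) without that library.

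Short promoter stretches show a feature shared by some of these genes. Smooth muscle promoters are known for CArG boxes, the binding sequence of serum response factor, which is 2 C, 6 letters A or T, and 2 G. In RefSeq promoter windows of GRCm38.p6 (250 bases before to 50 after the start), 27 of the 41 matrix genes had an entry, and both strands were searched. Matrix genes are counted as genes with a match in any of their windows, and the background as single windows. The 2 shares are therefore not in the same unit. The exact box was in 0 of 27 and in 1.63% of all 32851 windows. A box with 1 G or C among the 6 central letters was in 7 of 27, namely Acta2, Col1a2, Col6a3, Fbln2, Lamb1, Mmp14 and Timp3, against 8.50% of all windows. Sites of the 3 among them with an unadjusted p below 0.05 are given with 10 bases on either side, 5′ to 3′ on the strand of the gene, with the box in capitals.
Acta2 upstream box, chr19:34255438-34255467, minus strand: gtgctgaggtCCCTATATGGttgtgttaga
Acta2 proximal box, chr19:34255388-34255417, minus strand: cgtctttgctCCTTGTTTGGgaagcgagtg
Fbln2, chr6:91212683-91212712, plus strand: ctcctgggctCCTATTTGGGcttgttgagc
Lamb1, chr12:31265282-31265311, plus strand: tttctaattcCCTTCTTTGGgccggtgggc
The Acta2 boxes lie at −84 to −75 and −34 to −25 from the RefSeq start, the Fbln2 box at −71 to −62, and the Lamb1 box at −1 to 9. The gene models used for the levels start further upstream, at 34255590 for Acta2, 91212455 for Fbln2 and 31265234 for Lamb1. By those models each printed site lies inside its gene. Of the other letters searched, TATAAA was in 4 of 27 genes (Col3a1, Dpt, Postn and Vim, beside 13.6% of all windows) and TGANTCA, the AP-1 site, in 1 (Col6a1, beside 7.81%). A match is a description of letters and no measure of binding.

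Fibrillar collagens form the tensile fibres of scar and portal tract. Col3a1, the type III chain and the most abundant of them by mean FPKM, read 3.92, 11.3, 3.69, 4.42 and 2.64 FPKM in NIKflox 1 to 5 and 4.55, 3.79, 3.22, 2.93 and 5.66 FPKM in NIKhKO 1 to 5. NIKflox 2 was the highest and NIKflox 5 the lowest. Its log2 fold change was −0.31 (SE 0.36, adjusted p = 0.84) with NIKflox 2 and 0.21 (SE 0.20, adjusted p = 0.80) without it, so its direction turned on 1 library.

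Col1a1, the alpha 1 chain of type I collagen, read 1.81, 7.03, 3.67, 2.71 and 1.76 FPKM across NIKflox and 2.42, 1.89, 1.41, 1.25 and 3.70 FPKM across NIKhKO. NIKhKO 5 lay above every NIKflox library other than NIKflox 2. Its log2 fold change was −0.61 (95% interval −1.51 to 0.29), and −0.14 (−0.87 to 0.58) without NIKflox 2. Col1a2, the partner chain, went from −0.35 to 0.02. The 2 chains join in a fixed proportion in the protein, and the ratio of Col1a1 to Col1a2 in FPKM was 1.42 ± 0.237 in NIKflox against 1.20 ± 0.315 in NIKhKO (SD, n = 5 each), a difference within the spread of the libraries. NIKflox 2, at 1.65, lay inside the range of the others.

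Col5a1, which encodes a chain of the type V collagen that nucleates fibrils, read 1.37, 1.99, 1.902, 1.73 and 1.61 FPKM across NIKflox and 1.56, 1.32, 1.56, 1.14 and 1.29 FPKM across NIKhKO. NIKflox 1 lay among the NIKhKO values. Col5a1 had a log2 fold change of −0.26 (SE 0.13, unadjusted p = 0.078, adjusted p = 0.56), and −0.19 without NIKflox 2. Col5a2, its partner, was below the filter at 0.528 ± 0.323 FPKM in NIKflox against 0.357 ± 0.087 FPKM in NIKhKO (SD, n = 5 each). It read 1.07 FPKM in NIKflox 2. Col3a1 and Col5a2 are neighbours on chromosome 1, 24614 bases apart and on opposite strands.

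Beaded and fibril-associated collagens sit on or between the fibres. All 3 chains of type VI collagen, a beaded filament, were highest in NIKflox 2, at 2.33 times the median of the other libraries for Col6a1, 2.76 times for Col6a2 and 2.31 times for Col6a3. Without that library the 3 log2 fold changes were −0.10, −0.09 and 0.00, from −0.43, −0.52 and −0.33 with it. Col6a1 was 2.61 to 3.79 times Col6a2 in FPKM over the 10 libraries. Col14a1, a fibril-associated collagen and the most abundant of the group, read 6.15, 6.95, 6.201, 7.10 and 5.52 FPKM across NIKflox and 8.12, 6.09, 8.55, 5.11 and 6.04 FPKM across NIKhKO. It was 1 of the 3 genes with a log2 fold change above 0 with all 10 libraries, at 0.15 (SE 0.15, adjusted p = 0.80) and 0.20 without NIKflox 2, and its groups overlapped. Col12a1, related to Col14a1, had the lowest mean of the 41 and was below the filter, at 0.0315 to 0.248 FPKM.

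Basement membrane genes encode the sheet under epithelium and endothelium, which in liver is sparse along the sinusoids. Col18a1, the parent of endostatin and the highest of all 41 genes, read 96.3, 103, 114, 125 and 124 FPKM across NIKflox and 129, 113, 109, 107 and 115 FPKM across NIKhKO. The groups overlapped, with NIKflox 1 and NIKflox 2 below all NIKhKO libraries and NIKhKO 1 above all NIKflox libraries. The log2 fold change was 0.09 (95% interval −0.10 to 0.28), and 0.07 without NIKflox 2. Col15a1, its relative, had 0.27 (SE 0.17, adjusted p = 0.65), or 0.25 without NIKflox 2, from 2.69 ± 0.671 FPKM in NIKflox to 3.11 ± 0.458 FPKM in NIKhKO (SD, n = 5 each).

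Lamb1 (ENSMUSG00000002900, chromosome 12, 31265234 to 31329644, plus strand), the laminin beta 1 chain, read 1.10, 1.26, 0.959, 1.08 and 0.838 FPKM across NIKflox and 0.951, 0.800, 0.770, 0.834 and 0.702 FPKM across NIKhKO. The ranges overlapped through NIKflox 5 and NIKhKO 1. In edgeR the log2 fold change was −0.31 (SE 0.13, unadjusted p = 0.040, adjusted p = 0.47), and −0.23 (SE 0.13, unadjusted p = 0.11) without NIKflox 2. The beta 2 and gamma 1 chains, Lamb2 and Lamc1, had −0.27 and −0.10 with all libraries and −0.12 and −0.09 without NIKflox 2.

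Col4a1 and Col4a2, the type IV chains, start 21 bases apart on chromosome 8 and are transcribed in opposite directions, with gene models that overlap by 22 bases. Their log2 fold changes were −0.25 and −0.22, and −0.32 and −0.09 without NIKflox 2. Col4a1 read 0.593 times Col4a2 in NIKflox 2 and 0.653 times in NIKhKO 5, against 0.990 to 1.28 times in the other 8 libraries. In NIKflox 2 it was Col4a2, at 5.64 FPKM, that was the highest of the 10 libraries, whereas Col4a1, at 3.35 FPKM, was among the lower ones.

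Glycoproteins and elastic fibre genes came next. Fibronectin, encoded by Fn1 (ENSMUSG00000026193, chromosome 1, 71585520 to 71653175, minus strand), a cell adhesion glycoprotein that hepatocytes also secrete into plasma, read 109.7, 125, 104, 104 and 111 FPKM across NIKflox and 97.8, 93.3, 101, 100.4 and 93.7 FPKM across NIKhKO. It was the one tested matrix gene whose FPKM ranges did not overlap (1.59% of all tested genes were lower in NIKhKO without overlap, and 0.605% higher), and the same held without NIKflox 2 (2.79% and 1.02%). On CPM (counts relative to the library total) scaled by TMM factors, edgeR's correction for library composition, its ranges did overlap, and 0 of the 36 genes were separate there (0.872% of all tested genes were lower without overlap). With all libraries the log2 fold change was −0.12 (95% interval −0.33 to 0.08, adjusted p = 0.73), and −0.07 (−0.27 to 0.13) without NIKflox 2. Fn1 also varied the least of the 36, with a coefficient of variation of 7.67% in NIKflox and 3.70% in NIKhKO. Without NIKflox 1, 6 of 36 genes had separate FPKM ranges, all lower in NIKhKO (3.13% of all tested genes), namely Fn1, Acta2, Eln, Fbln2, Lamb2 and Col5a1.

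Eln (ENSMUSG00000029675, chromosome 5, 134702593 to 134747323, minus strand), which encodes elastin, read 0.447, 2.08, 0.599, 0.686 and 0.634 FPKM across NIKflox and 0.369, 0.357, 0.455, 0.519 and 0.580 FPKM across NIKhKO. NIKflox 2 was 4.00-fold above the median of the others, and NIKflox 1 lay among the NIKhKO values. The log2 fold change was −0.90 (SE 0.39, adjusted p = 0.48), and −0.30 (SE 0.20) without NIKflox 2. Fbln2 (ENSMUSG00000064080, chromosome 6, 91212455 to 91272540, plus strand), which encodes the matrix glycoprotein fibulin 2, read 0.297, 1.24, 0.750, 0.606 and 0.484 FPKM across NIKflox and 0.292, 0.477, 0.354, 0.403 and 0.266 FPKM across NIKhKO. Fbln2 had a log2 fold change of −0.85 (SE 0.33, adjusted p = 0.43). NIKflox 1 was close to the lowest value, and without NIKflox 2 the gene no longer passed the filter. Fbln5, a fibulin needed for elastic fibre assembly, had −0.28, and −0.06 without NIKflox 2. Fbn1 (fibrillin 1) and Fbln1 were below the filter. Fbln1 read 1.83 FPKM in NIKflox 2, 15.2-fold above the median of the other 9, and 0.414 FPKM in NIKflox 4 against at most 0.220 FPKM elsewhere.

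Among proteoglycans and matricellular genes, Dpt (ENSMUSG00000026574, chromosome 1, 164796644 to 164824266, plus strand), whose product dermatopontin binds decorin and collagen fibrils, read 4.44, 17.8, 3.08, 3.19 and 2.72 FPKM across NIKflox and 1.93, 1.51, 1.91, 3.67 and 2.11 FPKM across NIKhKO. NIKhKO 4 lay among the NIKflox values, and the other 4 NIKhKO libraries lay below all 5 of them. In edgeR the log2 fold change was −1.44 (SE 0.54, adjusted p = 0.40), and −0.52 (SE 0.28, adjusted p = 0.57) without NIKflox 2. Lum (ENSMUSG00000036446, chromosome 10, 97565128 to 97572703, plus strand), the keratan sulfate proteoglycan lumican, read 3.81, 13.8, 5.67, 3.94 and 3.65 FPKM across NIKflox and 2.39, 2.42, 2.34, 3.86 and 4.00 FPKM across NIKhKO. NIKhKO 4 and NIKhKO 5 reached the lower NIKflox values. With all libraries the log2 fold change was −0.98 (SE 0.38, adjusted p = 0.43), and −0.43 (SE 0.22, adjusted p = 0.56) without NIKflox 2.

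Bgn, the small proteoglycan biglycan and the most abundant of this group, read 21.2, 27.6, 19.6, 18.8 and 17.1 FPKM across NIKflox and 15.8, 15.1, 20.1, 19.8 and 18.7 FPKM across NIKhKO. Its groups overlapped, with a log2 fold change of −0.15 (SE 0.16), and −0.02 without NIKflox 2. Sparc, a collagen-binding matricellular protein, had −0.14, and 0.02 without it. Postn, which encodes periostin, had −0.44 and −0.05. Thbs1 (thrombospondin 1, which can activate latent TGF-beta) was below the filter, at 0.494 ± 0.242 FPKM in NIKflox against 0.447 ± 0.157 FPKM in NIKhKO (SD, n = 5 each).

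**Figure D3:**
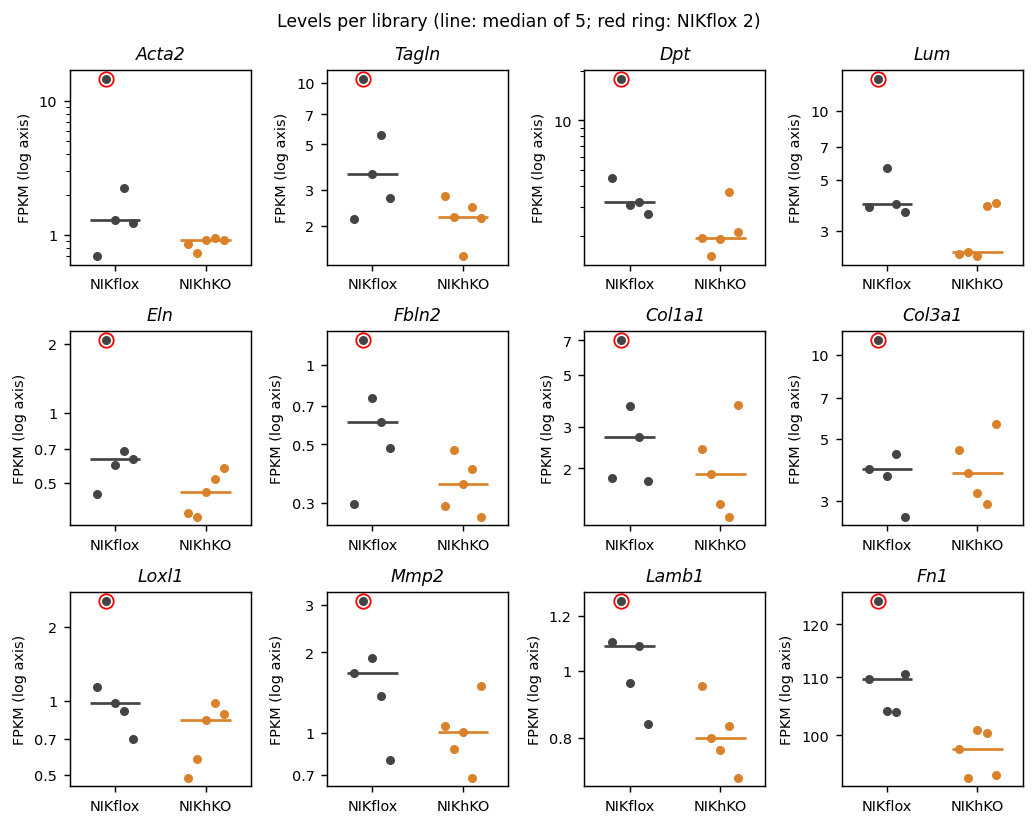
FPKM on log axes of 12 matrix genes in the 5 NIKflox and 5 NIKhKO libraries, with a line at each group's median and a red ring on NIKflox 2. The ringed point is the highest of each panel, at 14.6 FPKM for Acta2 and 17.8 FPKM for Dpt, and of these 12 genes only Fn1 has groups that do not overlap, a separation that is lost on TMM-scaled CPM.

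Matrix proteases and their inhibitors set the turnover of these proteins. Mmp14, the membrane-bound metalloproteinase that activates Mmp2, read 7.27, 7.01, 8.43, 8.72 and 9.09 FPKM across NIKflox and 7.78, 7.24, 5.65, 7.33 and 6.62 FPKM across NIKhKO. NIKflox 2 was the lowest of its group. The log2 fold change was −0.16 (SE 0.10, adjusted p = 0.63), and −0.21 (SE 0.10, unadjusted p = 0.059, adjusted p = 0.52) without NIKflox 2. Mmp2, a gelatinase, read 1.68, 3.12, 1.898, 1.38 and 0.797 FPKM across NIKflox and 1.07, 0.876, 1.01, 0.683 and 1.497 FPKM across NIKhKO. NIKflox 5 was below 4 of the 5 NIKhKO libraries. Mmp2 had a log2 fold change of −0.72 (SE 0.34, unadjusted p = 0.053), and −0.41 (SE 0.29) without NIKflox 2.

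The tissue inhibitors of metalloproteinases were all below 0 in log2 fold change, with no call. Timp2 had −0.36 and Timp3 had −0.33, or −0.07 and −0.23 without NIKflox 2. Timp1, which rises in fibrotic liver, read 0.609, 0.584 and 0.542 FPKM in NIKflox 3, 4 and 5 and 1.52 FPKM in NIKflox 2, and had a count of 0 in NIKflox 1. In NIKhKO it read 0.957, 0.235, 0.131 and 0.789 FPKM in replicates 1, 2, 3 and 5, with a count of 0 in NIKhKO 4. Its log2 fold change of −0.55 had a 95% interval from −2.73 to 1.63, and without NIKflox 2 the gene did not pass the filter.

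Crosslinking enzymes were low. Loxl1, the lysyl oxidase relative tied to elastic fibres, read 1.13, 2.55, 0.976, 0.906 and 0.702 FPKM across NIKflox and 0.488, 0.579, 0.833, 0.983 and 0.882 FPKM across NIKhKO. The groups overlapped, and the log2 fold change was −0.67 (SE 0.36, unadjusted p = 0.091), or −0.23 (SE 0.27) without NIKflox 2. Loxl2, by mean FPKM the most abundant of the 3, read 0.885, 1.52, 1.16, 1.15 and 0.713 FPKM across NIKflox and 0.935, 0.838, 1.27, 0.917 and 0.774 FPKM across NIKhKO. In edgeR the log2 fold change was −0.13, and 0.04 without NIKflox 2. Lox itself ranged from 0.0782 to 1.17 FPKM in NIKflox and from 0.101 to 0.962 FPKM in NIKhKO, with a log2 fold change of −0.34 (95% interval −1.83 to 1.16), and −0.01 (−1.61 to 1.58) without NIKflox 2.

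The ligand Tgfb1 read 2.40, 3.30, 2.03, 2.33 and 2.48 FPKM across NIKflox and 2.66, 2.18, 2.87, 2.27 and 1.81 FPKM across NIKhKO. The groups overlapped throughout. With all libraries the log2 fold change was −0.03 (95% interval −0.40 to 0.35), and 0.10 (−0.25 to 0.45) without NIKflox 2.

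By level, the 41 genes began with 4 abundant transcripts. Col18a1 and Fn1 ran from 93.3 to 129 FPKM, Bgn and Sparc from 15.1 to 29.04 FPKM, and the other 37 genes had means below that of Sparc. Mmp14, Col14a1, Vim, Timp2, Col3a1 and Lum followed in that order, and neighbours in this order overlapped in range. Summed over the 41 genes, NIKflox libraries held 316, 457, 339, 362 and 340 FPKM and NIKhKO libraries 336, 304, 318, 310 and 318 FPKM. NIKflox 2 was the highest, and NIKflox 1 lay inside the NIKhKO range. The median coefficient of variation of the 36 tested genes was 41.7% in NIKflox, 17.8% in NIKflox without NIKflox 2 and 20.8% in NIKhKO, beside 18.2%, 16.8% and 17.4% for all tested genes.

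**Figure D4:**
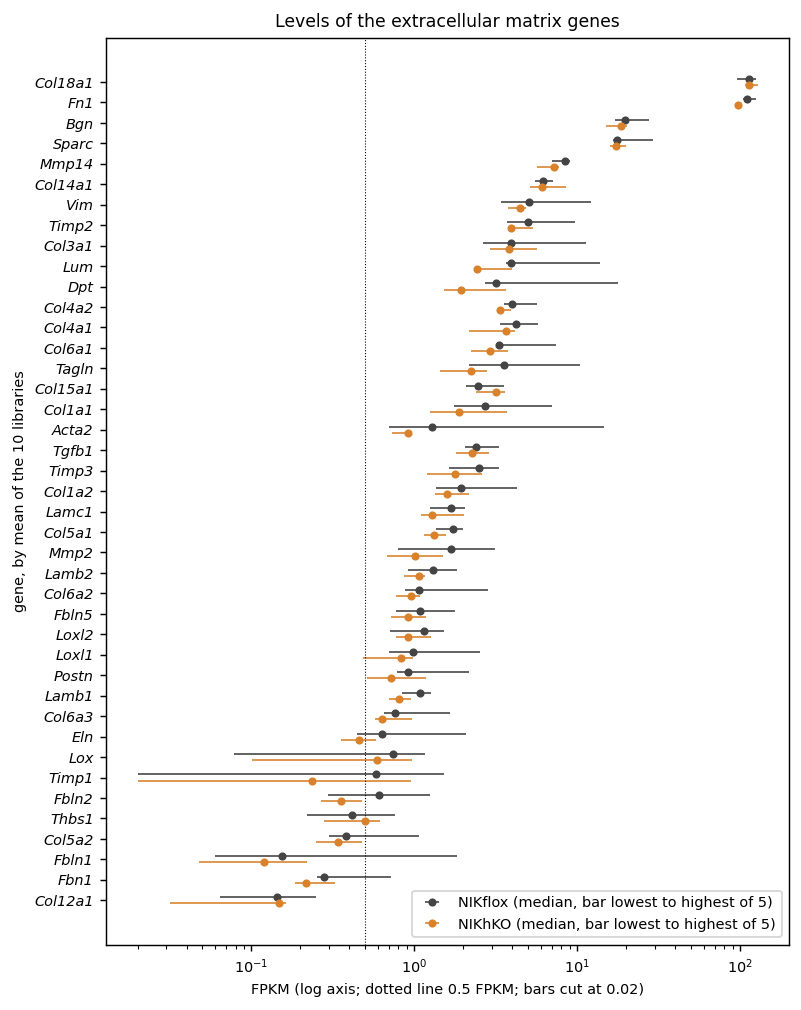
Median FPKM (points) and the lowest to highest of 5 libraries (bars, log axis) of the 41 matrix genes in NIKflox and NIKhKO, ordered by mean level, with a dotted line at the filter of 0.5 FPKM. Col18a1 and Fn1 lead, the bars of NIKflox reach further right than those of NIKhKO for most genes, and the 5 genes below the filter include Col12a1 at the bottom.

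The annotation terms carried by the table place 31 of the 41 in the collagen-containing extracellular matrix, 16 in the basement membrane and 15 among collagen trimers, and 12 are in the KEGG list of ECM-receptor interaction. They lie on 17 chromosomes. The remaining 262 genes of the collagen-containing matrix term gave a wider view, with 127 tested and 0 called. Of the 127, 84 were below 0 (51.8% of all tested genes), with a median log2 fold change of −0.10. Without NIKflox 2, 65 of 126 were below 0 (51.2% of all tested genes) and the median was −0.02.

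Genes around the matrix genes in their pathways were also compared, and 0 of the 88 tested genes of 5 lists were called by edgeR, with 17 lower and 2 higher at an unadjusted p below 0.05 (5.14% and 4.85% of all tested genes). Without NIKflox 2, 9 of 87 were lower and 3 higher (5.23% and 4.68%). For the counts below 0 in these lists, the share of all tested genes was 51.8%, or 51.2% without NIKflox 2. Of 25 genes of the TGF-beta pathway 19 were tested, and 12 were below 0 (median −0.08, or 0.01 without NIKflox 2). Smad7, the feedback inhibitor of the receptor, was 2.92 ± 0.782 FPKM in NIKflox against 1.84 ± 0.228 FPKM in NIKhKO (SD, n = 5 each), with a log2 fold change of −0.60 (adjusted p = 0.29) and −0.67 without NIKflox 2. Ccn1, a matricellular target of YAP and TGF-beta, had −0.62 (adjusted p = 0.35, and −0.49 without NIKflox 2), and Bambi, a decoy receptor, −0.65 (adjusted p = 0.40, and −0.54 without it). For Smad7 the size of the difference did not shrink when NIKflox 2 was left out.

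Collagen maturation enzymes and chaperones had 20 of 23 genes tested and 19 below 0 (51.8% of all tested genes), with a median of −0.20. Without NIKflox 2, 14 of 20 were below 0 (51.2%), with a median of −0.13. Those with the smallest p were Plod3, a lysyl hydroxylase (−0.33, adjusted p = 0.39), Loxl4 (−1.45, adjusted p = 0.42) and the procollagen protease Bmp1 (−0.20, adjusted p = 0.47). Without NIKflox 2 they had −0.34, −1.42 and −0.17. Other matrix proteins had 19 of 31 tested and 16 below 0, with a median of −0.29, and −0.12 without NIKflox 2. There Spp1, osteopontin, was 31.6 ± 9.24 FPKM in NIKflox against 19.2 ± 3.36 FPKM in NIKhKO (SD, n = 5 each; log2 fold change −0.66, adjusted p = 0.29, and −0.51 without NIKflox 2). Lamb3, a laminin chain, had 0.63 (adjusted p = 0.37) and the elastic fibre glycoprotein Emilin1 −0.36 (adjusted p = 0.45), or 0.67 and −0.23 without NIKflox 2.

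Other matrix proteases and inhibitors had 13 of 25 tested and 9 below 0 (median −0.12, or 0.04 without NIKflox 2), led by Mmp15 (−0.18, adjusted p = 0.47), the protease inhibitor Reck (−0.51, adjusted p = 0.48) and Adamts7 (0.46, adjusted p = 0.49). Those 3 had −0.20, −0.50 and 0.44 without NIKflox 2. Matrix receptors had 17 of 22 tested and 13 below 0 (median −0.09, or −0.06 without NIKflox 2), led by the integrin chains Itga8 (−0.58, adjusted p = 0.48), Itgb3 (−0.38, adjusted p = 0.56) and Itga5 (−0.30, adjusted p = 0.65). Without NIKflox 2 these had −0.33, −0.37 and −0.42.

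Markers of the cells that make matrix, and of other tissues, were compared over the same libraries. Summed stellate cell markers ran from 118 to 156 FPKM in NIKflox and from 96.4 to 135 FPKM in NIKhKO. The highest sum of all 10 libraries was that of NIKflox 2, followed by 153 FPKM in NIKflox 1. Of the 15 stellate markers 14 were tested, 0 were called, and all 14 were below 0 (51.8% of all tested genes), with a median of −0.15. Without NIKflox 2, 13 of 14 were below 0 (51.2% of all tested genes), with a median of −0.13. Des, desmin, had the smallest p among them (−0.58, adjusted p = 0.38, and −0.36 without NIKflox 2). Des is also in the smooth muscle list, where it again had the smallest p. Lrat, whose enzyme esterifies retinol for storage in quiescent stellate cells, was 2.33 FPKM in NIKflox 2, the lowest of all 10 libraries, and 4 of the 15 stellate markers were highest there.

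Smooth muscle markers summed to 67.4 FPKM in NIKflox 2 and 33.9 to 46.2 FPKM in the others, and 9 of 12 were highest in NIKflox 2. Myh11, smooth muscle myosin, read 2.49 FPKM there and 0.0656 to 0.419 FPKM elsewhere, and Cnn1 read 1.10 FPKM against at most 0.0589 FPKM, with a count of 0 in 5 libraries. Portal fibroblast markers, a list that holds Eln, summed to 98.1 FPKM in NIKflox 2. Their sum was 51.9 to 65.9 FPKM in the other NIKflox libraries and 59.5 to 74.9 FPKM in NIKhKO. Of the 12 markers, 8 were highest in NIKflox 2. Clec3b read 3.69 FPKM there and at most 0.188 FPKM elsewhere. All 8 skeletal muscle markers were highest in NIKflox 2 (14.8 FPKM summed, 0.108 to 3.20 FPKM elsewhere), and so were 7 of 10 adipocyte markers, among them Adipoq at 2.88 FPKM against at most 0.255 FPKM. Adipocyte markers summed to 243 to 809 FPKM in NIKflox and 251 to 481 FPKM in NIKhKO, a sum led by Pck1, which hepatocytes express. Actc1, cardiac actin, read 10.4 FPKM in NIKflox 4 and 2.90 FPKM in NIKflox 2, and had a count of 0 in the other 8. The part of these tissues in the matrix values of NIKflox 2 was not tested.

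**Figure D5:**
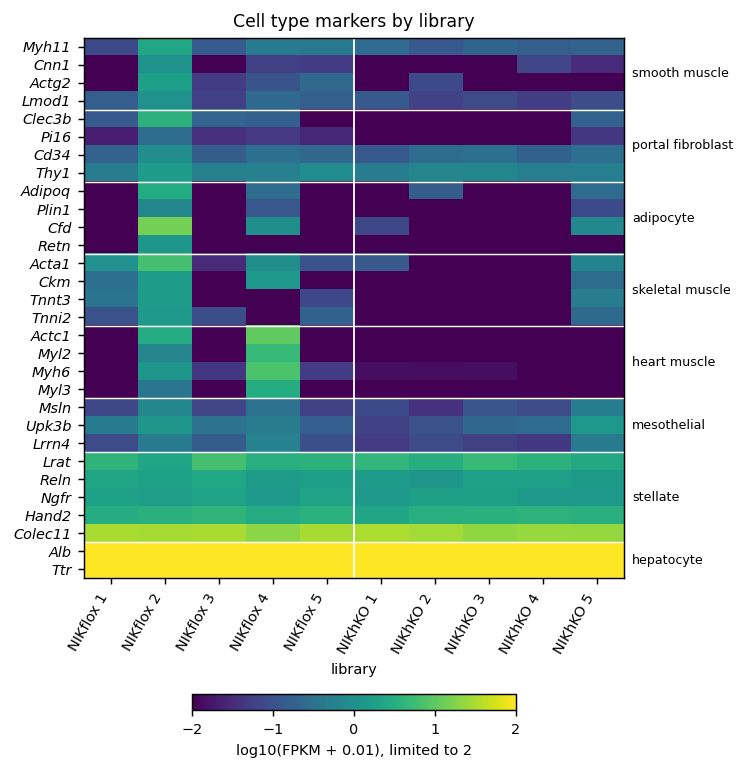
Colour shows log10(FPKM + 0.01) of 30 markers of 8 cell types or tissues, with libraries in columns. Markers of smooth muscle, adipocytes and skeletal muscle are brightest in NIKflox 2 (Myh11 2.49 FPKM), heart muscle markers in NIKflox 4 (Actc1 10.4 FPKM), and hepatocyte markers are at the top of the scale everywhere.

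All 13 cell type lists gave 0 calls in edgeR. Median log2 fold changes were −0.42 for 7 tested portal fibroblast markers and −0.11 for 5 tested smooth muscle markers, or −0.03 and 0.03 without NIKflox 2. Of the 7 portal fibroblast markers, 2 were lower at an unadjusted edgeR p below 0.05 (5.14% of all tested genes). The marker with the smallest p, Gas6, was higher at that threshold (4.85%). Without NIKflox 2, 0 were lower (5.23%) and Gas6 was still higher (4.68%). Hepatocyte markers had a median of −0.01 over 8, and adipocyte markers −0.28 over 4 tested (0.08 over 3 without NIKflox 2, so the sign turned). The largest medians were −9.53 for 4 tested heart muscle markers and −2.33 for 2 tested skeletal muscle markers. Of these, 3 and 2 were lower at an unadjusted edgeR p below 0.05 (5.14% of all tested genes). The tested heart muscle markers other than Tnnc1 did not pass the filter once NIKflox 2 and 4 were left out. Acta1, of skeletal muscle, did not pass once NIKflox 2 was left out. Markers that pass through NIKflox libraries alone are bound to be lower in NIKhKO. Their medians and counts are therefore no result about genotype. Without NIKflox 2 the medians were −9.63 over 4 and −0.79 over 1. Without NIKflox 2 and 4, 1 heart muscle marker was tested, at 0.38. In the remaining lists the medians were −0.10 for 10 sinusoidal endothelial markers, −0.23 for 6 tested vascular endothelial markers, −0.53 for 5 tested cholangiocyte markers, 0.17 for 7 Kupffer cell markers and −0.48 for 3 tested markers of monocyte-derived macrophages. Without NIKflox 2 they were −0.02, −0.10 over 4 tested, −0.39, 0.14 and −0.25 in the same order. All 5 cholangiocyte markers were then below 0 (51.2% of all tested genes). Mesothelial markers summed to 5.85 FPKM in NIKflox 1, 4.31 in NIKflox 2, 3.73 in NIKhKO 5 and at most 1.85 elsewhere. With all 10 libraries 0 of 8 were tested. Without NIKflox 2, 1 was tested, Krt14, at a log2 fold change of −10.1. It was lower at an unadjusted edgeR p below 0.05 (5.23% of all tested genes).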

How the data were processed

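Liver poly(A) RNA from 5 NIKflox and 5 NIKhKO mice was sequenced. One deposited table gave 55401 genes. Its FPKM values are the authors' own, per the file headers, and the estimated counts are used as deposited, whole and not normalized. A gene with a count of 0 is listed at an FPKM of 0.0001. Low counts pile up at multiples of 4 (per library on average 907 genes at 4, 330.5 at 3 and 175.8 at 5), so totals overstate depth and precision. Tools listed in the submitters' processing notes are HISAT2 2.0.4, StringTie 1.3.4d, cutadapt 1.9 and edgeR without a version, and the build listed is hg38, a human one. Identifiers are mouse, 93.8% of genes have the same start and end in GENCODE M21 of GRCm38, and positions are read as GRCm38.

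Counts were tested with edgeR 4.0.16 in R 4.3.3 (quasi-likelihood, TMM, two-sided, Benjamini-Hochberg over the 12730 genes whose FPKM averaged 0.5 or more), and calls are at an adjusted p below 0.05. Standard errors are the log2 fold change over the square root of F, and fold changes are NIKhKO minus NIKflox. Counts were not rounded further. The test was tested on simulated data. Alternatives were leaving out each library or NIKflox 2 and 4, a replicate block, RLE factors, other filters, a robust fit, DESeq2 1.42.0, and limma 3.58.1 on log2(FPKM + 1) and log2(FPKM + 0.1). Counts divided by 4, voom with library weights, no filter without NIKflox 2, and TMM-scaled CPM for range overlap were added after seeing the data.

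The 41 genes, 5 pathway lists and 13 cell type lists were chosen with earlier results of these data known. Every library's value is printed for genes with separate ranges, the 10 smallest p, the most abundant of each role and the 10 largest ratios of NIKflox 2 to the others. In lists the 3 smallest p are named where none was called, and genes shown for tissue markers in single libraries were chosen after their values were seen. Promoter sequences are from RefSeq, GRCm38.p6.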

Additional observations from a re-analysis of the deposited data

Results flagged for a closer look

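In each group of 5 libraries, the gap between an extreme library and its nearest neighbour was set against the range of the group (Dixon's ratio, with a critical value of 0.71). Of 82 groups, 41 genes in 2 genotypes, 15 held a library that stood out. The critical value is set for about 1 in 20 groups of independent, normally distributed values. These genes share the same libraries, and the share over all genes is not given here, so the 15 have no background to be read against. NIKflox 2 accounted for 13, and NIKhKO 3 and NIKhKO 4 for 1 each. In NIKflox 2 the collagens were Col3a1 at 11.3, Col6a1 at 7.39, Col6a2 at 2.83 and Col6a3 at 1.65 FPKM. The elastic fibre genes were Fbn1 at 0.718, Eln at 2.08 and Fbln1 at 1.83 FPKM. Lum stood out at 13.8, Dpt at 17.8 and Postn at 2.18 FPKM, and beside them Loxl1 at 2.55, Acta2 at 14.6 and Vim at 12.2 FPKM. All 13 were high. Among NIKhKO libraries, Fbn1 read 0.328 FPKM in NIKhKO 3 and Dpt read 3.67 FPKM in NIKhKO 4, again on the high side.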

How the results depend on the processing

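The result of 0 matrix genes called held in all alternatives, with a lowest adjusted p of 0.12 (Tagln). Log2 fold changes were below 0 under every setting in which they were tested for 24 of 36 genes, and above 0 under every setting for Col15a1, Col18a1 and Col14a1. The count of 3 genes called over all tested genes was 0 with limma (either pseudocount) and with no filter without NIKflox 2, 1 without NIKflox 2 and 4, 5 with voom, 6 with the robust fit and 207 with DESeq2 (126 higher, 81 lower), and 0 to 26 on leaving out each library, with 26 without NIKhKO 4. The 7 genes at an unadjusted p below 0.05 were 0 without NIKflox 2 and 4, 1 with no filter without NIKflox 2, 3 with voom, 4 at a mean FPKM of at least 1, and 1 to 9 on leaving out each library. Of all genes, 4.16% were lower at that p without NIKflox 2 and 4, and 4.45% with no filter without NIKflox 2. For voom and the filter at 1 FPKM the share of all genes is not given here, so those counts have no background beside them. The 1 gene with separate ranges was 0 on TMM-scaled CPM (0.872% of all tested genes lower and 1.24% higher) and 1 to 6 on leaving out each library. The 6 were without NIKflox 1, where 3.13% of all tested genes were lower without overlap.

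Directions reversed without NIKflox 2 and 4 for Col1a2 (0.036), Col3a1 (0.29), Lamc1 (0.0029), Loxl2 (0.10), Sparc (0.12), Tgfb1 (0.082) and Vim (0.13). They reversed with no filter and without NIKflox 2 for Col1a2 (0.019), Col3a1 (0.21), Col6a3 (0.0038), Loxl2 (0.039), Sparc (0.025), Tgfb1 (0.10), Timp1 (0.057) and Vim (0.078), and with voom for Col3a1 (0.11). On leaving out each library the ranges that crossed 0 were −0.48 to 0.015 for Col1a2, −0.47 to 0.21 for Col3a1, −0.24 to 0.014 for Lamc1, −0.28 to 0.036 for Loxl2, −0.20 to 0.022 for Sparc, −0.13 to 0.10 for Tgfb1 and −0.52 to 0.075 for Vim. The cause was not tested.

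With the replicate number as a block, 2 of the 36 genes had an unadjusted p below 0.05 and 0 were called. The share of all tested genes in that fit is not given here. Correlations of deviations between libraries of the same number ran from −0.32 to 0.030. Mice of the same litter or cage need not deviate together, so these correlations cannot decide whether the numbers pair the libraries. Counts were as low as 0 for Timp1, in NIKflox 1 and NIKhKO 4, and 95% intervals were over 2 log2 units wide for Timp1, Lox, Acta2 and Dpt.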
